A study of Mus musculus with 26 samples.

Results

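The chemokine and chemokine receptor genes of the mouse were set against the map of domain boundaries of embryonic stem cells (ESCs) in G1. Members were the protein-coding genes in RefSeq's annotation of GRCm38.p6 (mm10) whose symbol is Ccl, Cxcl, Ccr or Cxcr followed by a digit, together with Cx3cl1, Cx3cr1 and Xcl1. The rule matched 57 genes, of which 56 had a position on a chromosome, out of 21521 located protein-coding genes. Ccl21c, the remaining match, is placed along a scaffold and was left out. The 56 members comprised 38 ligand genes (24 CC, 12 CXC, Cx3cl1 and Xcl1) and 18 receptor genes (11 CC, 6 CXC and Cx3cr1).

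The study used Micro-C, which cuts chromatin with micrococcal nuclease and joins fragments that lie close together in the nucleus, so that sequenced pairs report contacts. All 26 libraries came from a RAD21-dTAG line of Bruce-4 origin with C57BL/6J genotype, in which the cohesin subunit RAD21 carries a tag that lets the dTAG compound trigger its breakdown. In libraries labelled ESC, there were 6 libraries with 500 nM dTAG, 6 with 20 µM A485, which inhibits the histone acetyltransferases CBP and p300, and 6 with the solvent DMSO at 0.05% v/v. The DMSO-treated ESCs were kept in serum, 2i and LIF; for some of the dTAG and A485 libraries labelled ESC the growth protocol mentions differentiation to epiblast-like cells, and they enter no value below. In epiblast-like cells there were 4 libraries with dTAG and 4 with DMSO. The values below rest on 1 list of 3515 boundary intervals that the authors made from the 6 DMSO-treated ESC libraries together. Those cells carry the tagged RAD21 too. Each interval is 25 kb wide and has a chromosome, a start and an end but no score. A list pooled over libraries has no replicate spread and the contact depth behind it is unknown, so the values are given as descriptions without a test. It also holds no expression values, so neither the cell type nor the activity of any gene could be checked.

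Chemokines are small secreted proteins that guide leukocytes, and they are sorted into the CC, CXC, XC and CX3C classes by the arrangement of their first cysteines. They act through receptors that span the membrane and couple to G proteins. Inflammatory chemokines are switched on by infection and injury, often through the transcription factor NF-kB, whereas homeostatic chemokines place cells in lymphoid organs, skin, gut and bone marrow. Many of these genes arose by local duplication and still lie side by side. A topologically associating domain is a stretch of chromosome whose parts touch each other more often than they touch the neighbouring stretches, and a boundary is where such stretches meet.

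Few chemokine or receptor genes lay at a boundary. Of the 56 members, 2 (3.57%) had an end inside a boundary interval or within 10 kb of one, against 18.3% of all protein-coding genes (3935 of 21521). With no window, 1 member (1.79%) had an end inside an interval, against 11.7% of all protein-coding genes. Within 50 kb there were 9 members (16.1%), against 35.6%. The genes are short, with a median length of 5.163 kb against 17.375 kb for all protein-coding genes, and a shorter gene reaches fewer boundaries. Among genes of up to 10 kb, 1 of 41 members (2.44%) was within 10 kb of a boundary, against 12.0% of protein-coding genes of that length (918 of 7675). Within 50 kb the shares at that length were 17.1% (7 of 41) and 25.8% (1977 of 7675), closer together than without the length limit. Many members lie side by side, so these counts do not rest on independent genes.

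The distance from the nearer gene end to the closest boundary had a median of 176.45 kb over the members, with quartiles of 83.109 and 305.701 kb. Over all protein-coding genes the median was 98.858 kb, with quartiles of 22.839 and 228.61 kb. The members' values ran up to 723.12 kb. When both sides were restricted to genes of up to 10 kb, the medians were 171.365 kb for members and 144.65 kb for all protein-coding genes, so these medians lay closer together than without the length limit. Members of 1 cluster share a stretch of chromosome, and their distances are therefore not independent values.

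**Figure D1:**
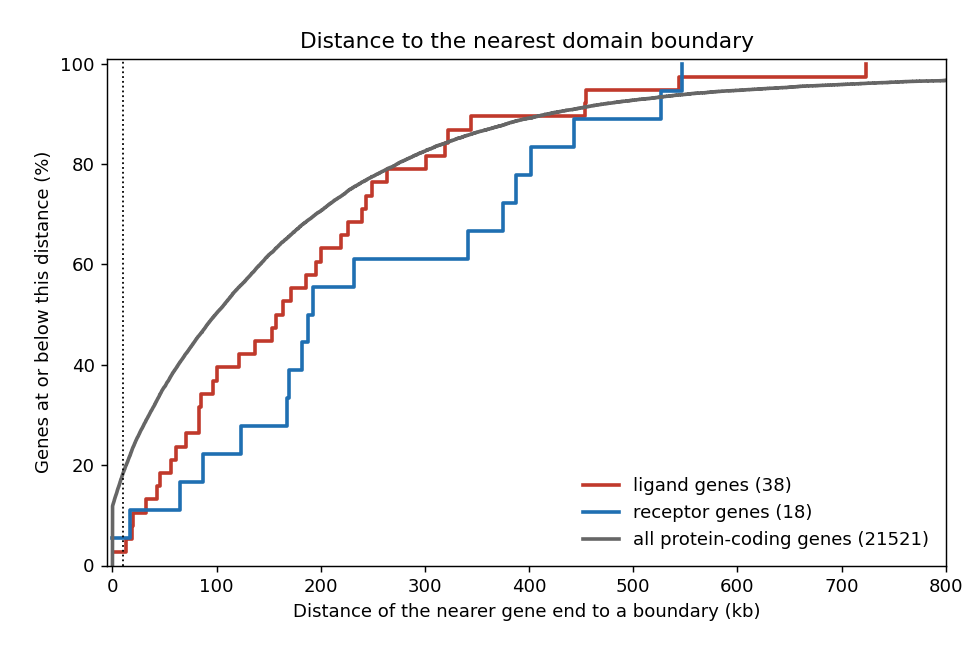
Share of genes (vertical axis, percent) whose nearer end lies at or below a given distance from a boundary (horizontal axis, kb), for 38 ligand genes, 18 receptor genes and 21521 protein-coding genes; the dotted line marks 10 kb. At 10 kb the curve of all protein-coding genes has reached 18.3%, while the ligand and receptor curves stand at 2.63% and 5.56%.

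The members within 10 kb were a receptor gene and a ligand gene. Cxcr2 encodes the receptor through which Cxcl1, Cxcl2, Cxcl3 and Cxcl5 draw in neutrophils. It occupies chr1:74153994-74161246 and lay wholly inside the boundary interval chr1:74150001-74175000. Cxcl17, which codes for a chemokine of mucosal tissues, had its lower-coordinate end 0.053 kb from the interval chr7:25375001-25400000. That interval holds Lipe, the gene of hormone-sensitive lipase. Just outside the window came Ccl17 at 12.963 kb, Cxcr1 at 16.785 kb, Cxcl2 at 19.063 kb and Ccl1 at 20.189 kb. No other member lay within 25 kb.

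The promoter of Cxcr2 is shown because it is the only stretch among the printed promoters that falls inside a boundary interval. It is the RefSeq plus strand of GRCm38.p6 from 250 bases before to 50 bases after the gene's start, at chr1:74153744-74154043.
Cxcr2: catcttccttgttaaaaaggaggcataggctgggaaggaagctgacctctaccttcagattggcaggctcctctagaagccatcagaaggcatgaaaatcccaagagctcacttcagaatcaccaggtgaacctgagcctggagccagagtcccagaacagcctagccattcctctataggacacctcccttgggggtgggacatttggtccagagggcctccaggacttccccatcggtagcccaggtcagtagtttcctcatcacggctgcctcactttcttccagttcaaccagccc

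At the other end of the range, the members farthest from a boundary included Ccl21b at 723.12 kb, Cxcl12 at 543.535 kb, Ccr2 at 526.918 kb and Cxcl16 at 454.389 kb. Ccl21b belongs to the ligands of Ccr7 that lead T cells and dendritic cells into lymph nodes. Ccr2 is a receptor of monocytes. Cxcl12 retains blood stem cells in the bone marrow through Cxcr4, and Cxcl16 is a membrane-bound ligand of Cxcr6. The distance of Ccr2 was measured on 1 side only, since no boundary follows it on chromosome 9. Both CC and CXC genes, and both ligands and receptors, were among these.

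**Figure D2:**
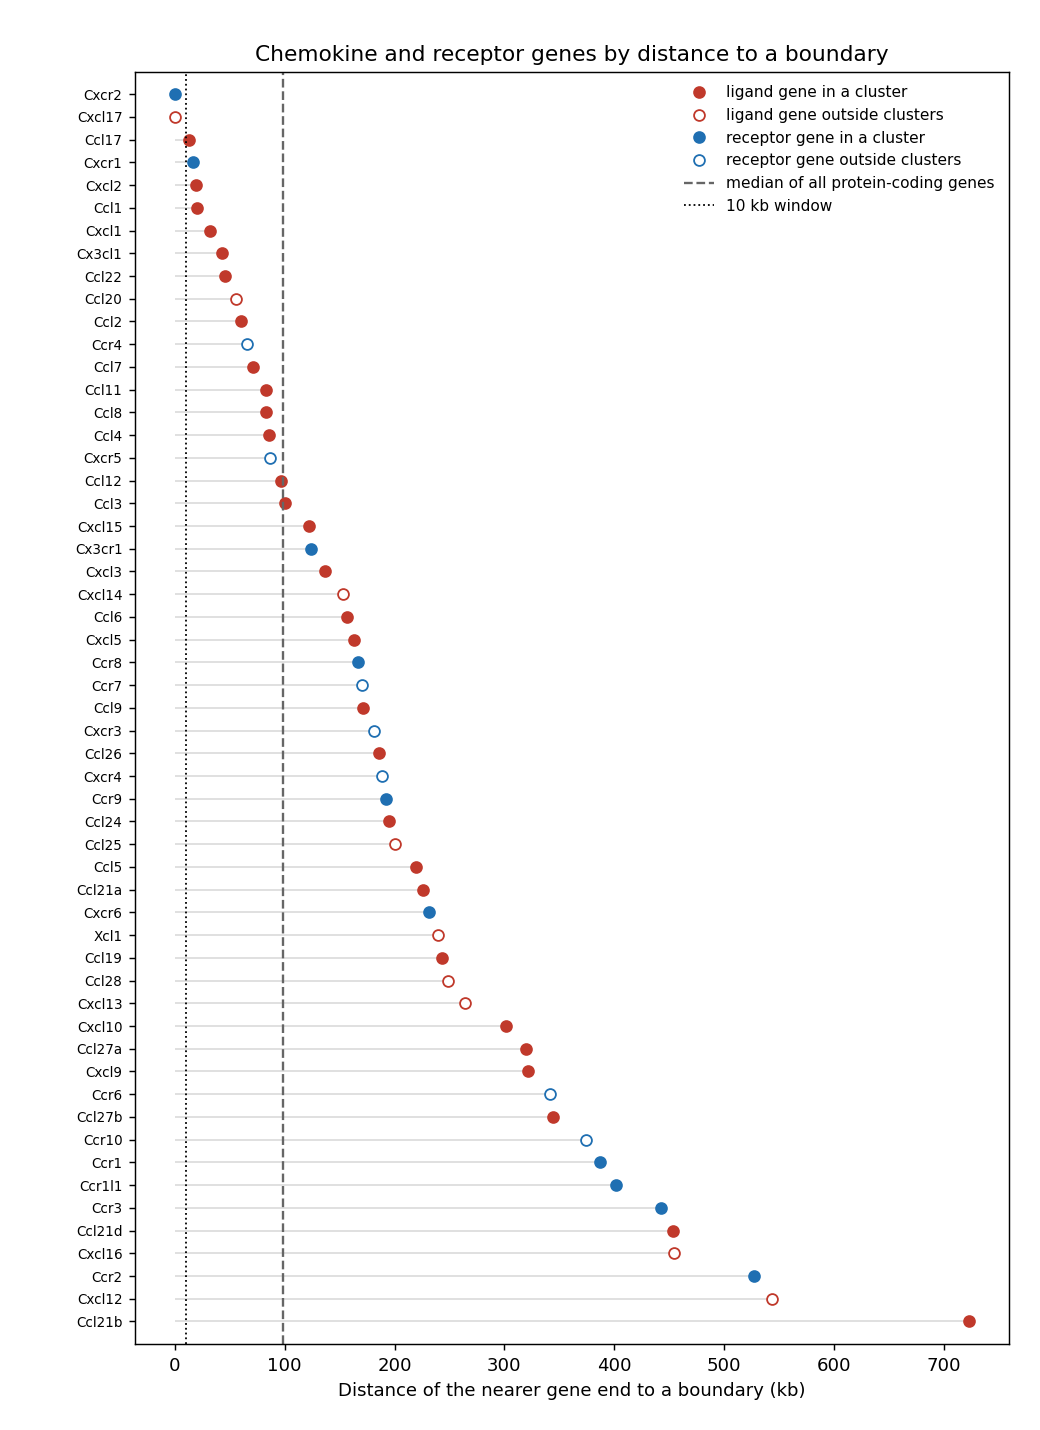
Distance of the nearer gene end to the closest boundary (horizontal axis, kb) for the members reported by name, one row per gene; filled points are genes in clusters, open points are genes outside clusters, red is a ligand and blue a receptor. Cxcr2 and Cxcl17 sit left of the dotted 10 kb line, and Ccl21b at 723.12 kb is farthest; the dashed line is the median of all protein-coding genes, 98.858 kb.

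By role, 1 of 38 ligand genes (2.63%) and 1 of 18 receptor genes (5.56%) lay within 10 kb of a boundary. The median distance was 160.145 kb for ligand genes and 190.205 kb for receptor genes. CC receptor genes had the longest median of the CC and CXC classes, 374.558 kb over 11 genes. However, 6 of those 11 lie beyond the last boundary of chromosome 9, where distance is measured on 1 side only. CXC receptor genes had a median of 134.161 kb over 6 genes. CC and CXC ligand genes differed little from each other, with medians of 164.139 kb over 24 genes and 158.283 kb over 12 genes. Of a list of inflammatory ligands, 15 were located, and their median distance was 85.318 kb. They ran from 19.063 kb at Cxcl2 to 321.922 kb at Cxcl9. Of a list of homeostatic ligands, 9 were located, with a median of 248.819 kb and a range from 153.19 kb at Cxcl14 to 723.12 kb at Ccl21b. Neither list had a member within 10 kb of a boundary. These ranges overlap, and 5 of the inflammatory ligands are in a single short domain on chromosome 11. Likewise, Ccl19, Ccl21a, Ccl21b and Ccl27a of the homeostatic list share a single domain of 1550 kb on chromosome 4. The order of the 2 lists also turned round when distance was scaled to domain length. This relative depth of the midpoint rises from a domain's edge to its centre. Its median was 0.627 for inflammatory and 0.398 for homeostatic ligands in domains, against 0.445 for all protein-coding genes. Their median domain lengths were 450 and 1550 kb.

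Chaining members with gaps of at most 500 kb gave 26 loci, of which 10 were clusters that together held 40 members; 16 members stood alone. A boundary interval touched 1 of the 10 clusters. Of the other 9 clusters, 8 lay in a single domain each and 1 lay beyond the last boundary of its chromosome. The 10 clusters span 1.988 Mb in all and contain 1 boundary, or 0.503 per Mb, against 1.368 per Mb over the annotated 2569.6 Mb. Cluster spans ranged from 12.676 kb to 1004.525 kb. The longest, on chromosome 4, makes up much of the total, and the chromosome 9 cluster beyond the last boundary adds to it. The rate thus rests on 1 boundary and on these stretches, and it shows no scarcity of boundaries in the other clusters.

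**Figure D3:**
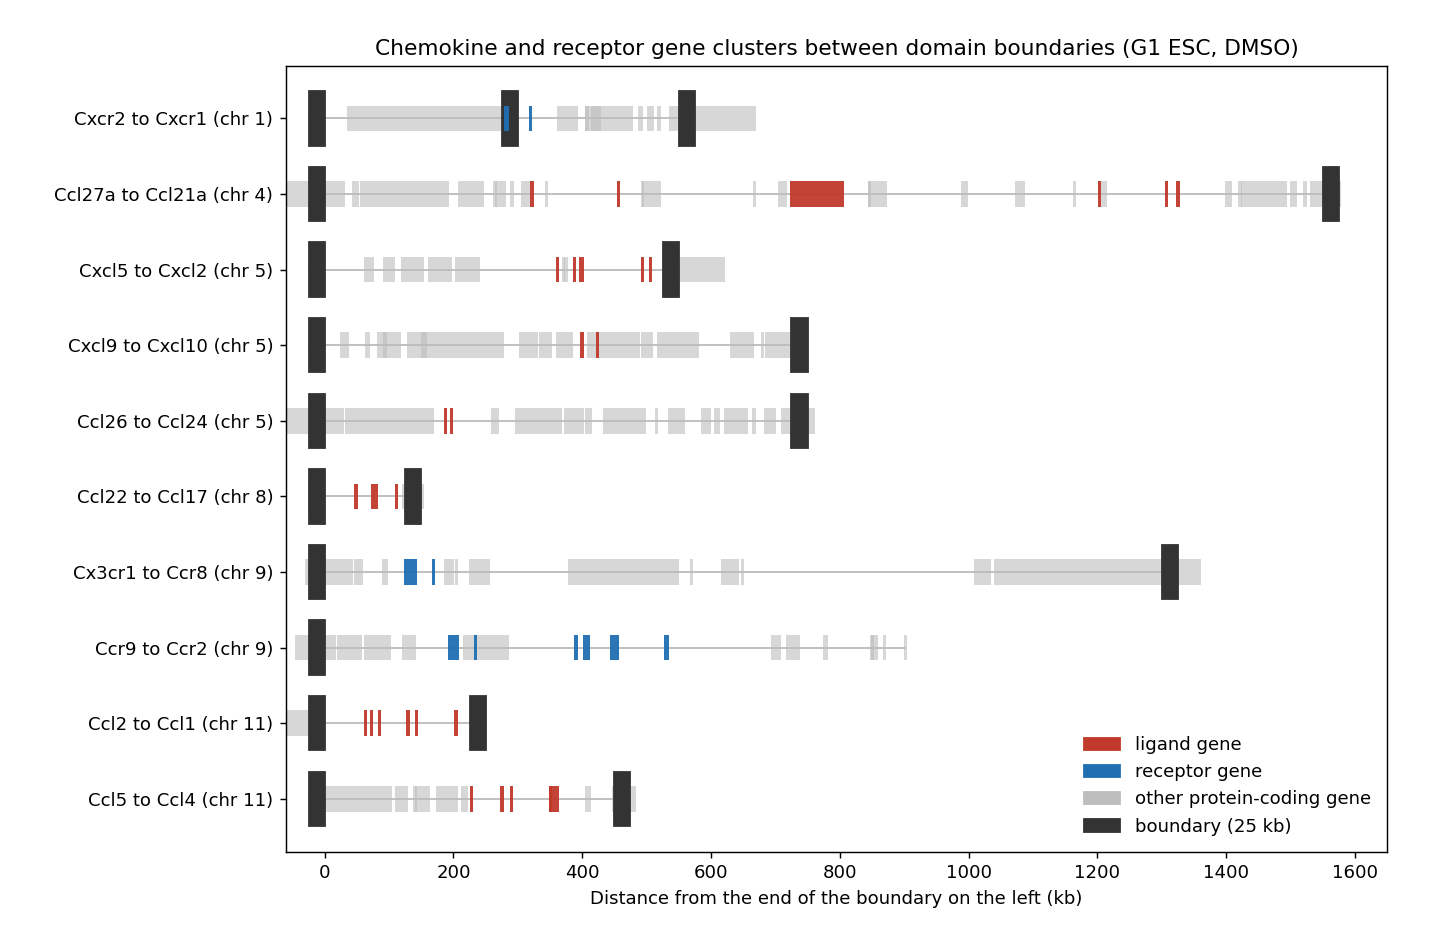
The 10 clusters drawn to scale, each from the end of the boundary on its left (horizontal axis, kb); red boxes are ligand genes, blue boxes receptor genes, grey boxes other protein-coding genes and dark blocks boundary intervals of 25 kb, and very short genes are widened to 5 kb to be visible. A boundary falls within the row of Cxcr2 to Cxcr1 only, the Ccl2 to Ccl1 and Ccl22 to Ccl17 rows hold no grey box that is centred between their boundaries, and the Ccr9 to Ccr2 row has no boundary on its right.

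Among ligands, the cluster of monocyte and eosinophil attractants on chromosome 11 lay in a domain with no other protein-coding gene assigned to it. Ccl2, Ccl7, Ccl11, Ccl12, Ccl8 and Ccl1 lie in that order at chr11:82035577-82179812. The domain chr11:81975001-82200000, which is 225 kb long, was assigned 6 protein-coding genes by their midpoints, and these are the 6. The cluster took up 64.1% of it, 60.577 kb from the boundary on the left and 20.189 kb from that on the right. Ccl2, Ccl7 and Ccl12 attract monocytes through Ccr2, Ccl11 attracts eosinophils through Ccr3, and Ccl8 and Ccl1 act in the mouse through Ccr8. Within the domain the distance to the nearer boundary was 60.577 kb for Ccl2, 70.712 kb for Ccl7, 82.832 kb for Ccl11, 96.602 kb for Ccl12, 83.202 kb for Ccl8 and 20.189 kb for Ccl1. Ccl12 was thus the deepest. The left boundary overlaps the ion channel gene Asic2, and no protein-coding gene overlapped the right one.

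The other CC ligand cluster of chromosome 11 followed after 1.35 Mb, 4 boundaries and 25 other protein-coding genes. Ccl5, Ccl9, Ccl6, Ccl3 and Ccl4 lie at chr11:83525778-83664683 in a domain of 450 kb, chr11:83300001-83750000. Ccl5, Ccl3 and Ccl4 attract T cells and macrophages. Unlike the first cluster, these genes share their domain with other families: 15 protein-coding genes were assigned to it, among them the adaptor gene Ap2b1, the RNA-binding protein gene Taf15 and the Wfdc17, Wfdc18 and Wfdc21 genes. The cluster was 225.778 kb from the boundary on the left, where Slfn14 lies, and 85.318 kb from that on the right, at Heatr6. The gene models of Ccl3 and Ccl4 overlap.

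Ccl22, Cx3cl1 and Ccl17 on chromosome 8 were likewise the only protein-coding genes of their domain. Ccl22 and Ccl17 share the receptor Ccr4, found on regulatory and helper T cells, and Cx3cl1 is fractalkine, a ligand anchored in the membrane. The genes lie at chr8:94745684-94812038 and the domain, chr8:94700001-94825000, is 125 kb long. Only 7 of the 3495 domains are this short. Ccl22 was 45.684 kb, Cx3cl1 42.574 kb and Ccl17 12.963 kb from the nearer boundary. The left boundary holds an end of Pllp and the right one ends of Ciapin1 and Coq9.

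On chromosome 4, the ligands of Ccr7 and Ccr10 formed the widest cluster. Ccl27a, Ccl21d, Ccl21b, Ccl27b, Ccl19 and Ccl21a span 1004.525 kb at chr4:41769467-42773991, and no boundary interval fell among them. Ccl19 and Ccl21 guide naive T cells and dendritic cells through Ccr7, and Ccl27 guides T cells to skin through Ccr10. The domain, chr4:41450001-43000000, is 1550 kb long and holds 37 protein-coding genes and 24 pseudogenes. Other duplicated genes lie in it, such as Fam205a1 to Fam205a4 and Il11ra1 and Il11ra2. The nearer boundary was 319.467 kb from Ccl27a, 453.613 kb from Ccl21d, 723.12 kb from Ccl21b, 343.993 kb from Ccl27b, 243.636 kb from Ccl19 and 226.01 kb from Ccl21a. All 6 were farther from a boundary than the median protein-coding gene.

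Some of the copies in this domain have nearly the same promoter, and those of Ccl21d and Ccl21a are printed to show this. They match at 297 of 299 aligned bases (99.3%), after a shift of 1 base, and the 2 bases that differ are in capitals. Ccl21d is the RefSeq plus strand at chr4:41903363-41903662 and Ccl21a the minus strand at chr4:42773942-42774241, both GRCm38.p6 and read 5′ to 3′.
Ccl21d: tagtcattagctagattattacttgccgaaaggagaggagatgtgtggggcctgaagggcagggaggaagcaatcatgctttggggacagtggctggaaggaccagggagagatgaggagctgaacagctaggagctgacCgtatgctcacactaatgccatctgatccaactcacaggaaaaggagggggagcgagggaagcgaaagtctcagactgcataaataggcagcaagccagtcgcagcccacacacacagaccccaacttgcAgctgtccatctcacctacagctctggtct
Ccl21a: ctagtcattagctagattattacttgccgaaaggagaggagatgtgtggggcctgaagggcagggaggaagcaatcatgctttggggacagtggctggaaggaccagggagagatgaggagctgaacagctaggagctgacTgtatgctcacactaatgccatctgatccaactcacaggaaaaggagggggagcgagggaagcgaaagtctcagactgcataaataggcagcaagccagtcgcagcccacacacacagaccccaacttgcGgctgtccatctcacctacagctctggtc

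The promoters of Gm13304 and Gm10591, which lie in the same domain, were identical to each other over 300 bases and differed from that of Ccl21d at 1 base. The annotated start of Ccl21b is elsewhere, since its gene model is 83706 bases long, and its promoter matched that of Ccl21d at 32.9%. Reads from stretches that are identical between copies cannot be assigned to 1 of them by sequence. How the deposited list treats such reads is not given in the sources used here, and their part in the length of this domain was not tested.

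The ligand genes Cxcl1, Cxcl2, Cxcl3 and Cxcl5, whose products act on Cxcr2, lay together on chromosome 5, with Cxcl15 among them. Cxcl5, Cxcl3, Cxcl15, Cxcl1 and Cxcl2 occupy chr5:90759298-90905938, and the platelet chemokine genes Ppbp and Pf4 lie among them. Their domain, chr5:90400001-90925000, is 525 kb long and has 12 protein-coding genes. The others include Alb, Afp and Afm, which encode albumin and related proteins secreted by the liver. The distance to the nearer boundary was 163.376 kb for Cxcl5, 136.908 kb for Cxcl3, 121.934 kb for Cxcl15, 31.88 kb for Cxcl1 and 19.063 kb for Cxcl2. The nearer boundary of every one was that on the right, which holds an end of Mthfd2l, and the boundary on the left was 359.298 kb away.

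Within this domain the promoters of Cxcl1, Cxcl2 and Cxcl3 each held a match to an NF-kB motif, and they are printed for that reason. The letters searched were GGGA, any base and then TTTCC, on both strands, and the match is in capitals. All 3 are RefSeq plus strands of GRCm38.p6, at chr5:90890995-90891294 for Cxcl1, chr5:90903649-90903948 for Cxcl2 and chr5:90785851-90786150 for Cxcl3.
Cxcl1: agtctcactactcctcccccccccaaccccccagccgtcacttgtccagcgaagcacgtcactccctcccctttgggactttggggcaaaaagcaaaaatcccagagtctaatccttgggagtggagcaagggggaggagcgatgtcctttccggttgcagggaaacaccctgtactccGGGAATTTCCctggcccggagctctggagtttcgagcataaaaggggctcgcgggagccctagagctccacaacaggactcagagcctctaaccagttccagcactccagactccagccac
Cxcl2: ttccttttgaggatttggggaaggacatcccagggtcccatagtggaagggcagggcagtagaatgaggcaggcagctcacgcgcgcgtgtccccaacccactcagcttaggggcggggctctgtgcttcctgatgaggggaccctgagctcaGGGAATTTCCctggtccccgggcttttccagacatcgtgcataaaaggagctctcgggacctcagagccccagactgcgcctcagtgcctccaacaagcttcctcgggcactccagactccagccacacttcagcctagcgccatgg
Cxcl3: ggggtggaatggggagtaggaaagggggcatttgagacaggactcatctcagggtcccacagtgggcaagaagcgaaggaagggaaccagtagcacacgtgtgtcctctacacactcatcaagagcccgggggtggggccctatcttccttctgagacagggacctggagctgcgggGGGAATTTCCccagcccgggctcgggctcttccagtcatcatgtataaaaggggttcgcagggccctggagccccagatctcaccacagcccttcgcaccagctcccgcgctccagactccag

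The matched letters were the same in each, GGGAATTTCC, and ended 61 bases before the start in Cxcl1, 87 in Cxcl2 and 63 in Cxcl3. Promoters were in the table for 42 of the 56 members (75%). A match occurred in 4 of these 42 genes (9.52%), the fourth being Ccr3, against 126 of 27025 genes in the table (0.466%). The annotation has 21900 protein-coding genes, so that background is not limited to protein-coding genes as the members are. Cxcl1, Cxcl2 and Cxcl3 are copies of each other, so their matches are not independent. A match describes letters only and shows no binding. Because fewer than 80% of members had a promoter entry, a check of base composition over the set is void and none was made. Members without an entry include Ccl11, Ccl2, Ccl24, Ccl26, Ccl4, Ccl5, Ccl7, Ccr10, Ccr7, Cxcl16, Cxcl17, Cxcl5 and Cxcr5.

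Other pairs of ligand genes shared their domains with many other genes. Cxcl9 and Cxcl10, which are induced by interferon and act on Cxcr3, lie 1.42 Mb and 2 boundaries beyond Cxcl2. They share a domain of 725 kb, chr5:91925001-92650000, with 16 other protein-coding genes such as Scarb2 and Naaa, and were 321.922 and 301.112 kb from the nearer boundary. Cxcl13, which attracts B cells to follicles through Cxcr5, lay another 3.61 Mb and 3 boundaries on. Its domain of 3025 kb was the longest that held a member and has many Pramel genes in it. Ccl26 and Ccl24, relatives of Ccl11 that act on Ccr3 in humans, were 185.448 and 194.935 kb from the nearer boundary in a domain of 725 kb, chr5:135375001-136100000, with 18 protein-coding genes.

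Among receptors, the cluster on the distal part of chromosome 9 had a boundary on 1 side only. It includes Ccr9, Cxcr6, Ccr1, Ccr1l1, Ccr3 and Ccr2, with Fyco1 and the Xcl1 receptor gene Xcr1 among them. The last boundary of the chromosome in the list is chr9:123550001-123575000, at Sacm1l, and the stretch from there to the last annotated gene is 901.862 kb long with 19 protein-coding genes. Ccr9, the gut-homing receptor for Ccl25, was nearest to that boundary at 192.211 kb. Cxcr6 was at 231.477 kb, Ccr1 at 387.126 kb, Ccr1l1 at 401.43 kb, Ccr3 at 442.825 kb and Ccr2 at 526.918 kb. Without a boundary on the far side, no domain length can be given for these genes.

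Earlier on chromosome 9, Cx3cr1 and Ccr8 formed a cluster of 46.224 kb. Cx3cr1 is the fractalkine receptor of microglia and monocytes, and Ccr8 is carried by regulatory and skin T cells. They were 123.683 and 167.133 kb from the nearer boundary in a domain of 1300 kb, chr9:119925001-121225000, with 15 protein-coding genes, among them the β-catenin gene Ctnnb1. From Ccr8 to Ccr9 there were 3.67 Mb, 5 boundaries and 50 other protein-coding genes.

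Cxcr2 and Cxcr1 on chromosome 1, both receptors for CXC ligands on neutrophils, were the only cluster with a boundary in it. They span 40.715 kb at chr1:74153994-74194708. Cxcr2 is inside the boundary interval and Cxcr1 lies 16.785 kb to its right, in a domain of 250 kb with 10 protein-coding genes, among them Arpc2 and Slc11a1. Rufy4, on the other side, ends 1.771 kb before the interval. With intervals of 25 kb the list does not say on which side of the boundary point Cxcr2 falls.

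The 16 members outside clusters had distances between 0.053 kb at Cxcl17 and 543.535 kb at Cxcl12, with a median of 194.202 kb; the 40 members in clusters had a median of 165.255 kb. Cxcr4, the Cxcl12 receptor, was the only protein-coding gene assigned to its domain of 450 kb, chr1:128400001-128850000, and lay 188.199 and 257.702 kb from its boundaries. Dars reaches across the left one. Cxcl12 itself shares a domain of 1200 kb with 4 other protein-coding genes. Ccr10, by contrast, was 1 of 56 protein-coding genes in a domain of 1225 kb, and Cxcl16 was 1 of 47 in a domain of 1025 kb. Ccr4, the receptor for Ccl17 and Ccl22, was 65.316 kb from a boundary in a domain of 175 kb with 3 protein-coding genes. Ccr6, the Ccl20 receptor, lay in a domain of 2525 kb with 32. Ccl28, a mucosal ligand, lies beyond the last boundary of chromosome 13, 248.819 kb from it.

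By gene midpoint, 47 of the 56 members (83.9%) were in a domain, 1 was in a boundary interval and 8 lay beyond the last boundary of a chromosome. Of all 21521 protein-coding genes, 91.8% were in a domain, 1404 in a boundary interval and 367 beyond the outermost boundaries. The 8 members were the distal cluster of chromosome 9 and Ccl28, so their number rests mainly on 1 cluster. The 47 genes shared 24 domains. In 3 of these, members were the only protein-coding genes, and in 1 of the 3 that was Cxcr4 alone. More than 1 member was held by 8 domains. Matching shares over all domains were not computed, so these counts are descriptions only. No domain held both a ligand and a receptor gene, but no cluster did either, so this describes gene positions rather than boundaries. The 24 domains had a median length of 637.5 kb and quartiles of 437.5 and 1068.75 kb, against 500.0 kb and quartiles of 325.0 and 825.0 kb for all 3495 domains. They held a median of 12.5 protein-coding genes, against 3.0 in all domains, and 1.988 protein-coding genes per 100 kb, against 0.807. Any domain chosen because it holds a gene is more likely to be long and rich in genes. Counted once for each gene, the median length was 525.0 kb over the members and 675.0 kb over all protein-coding genes, and the median number of protein-coding genes in the domain was 13 over the members and 12 over all protein-coding genes. The direction of the difference in length thus depends on how domains are counted, and the gap in gene number is seen only when domains are counted once each.

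Neighbouring members less than 500 kb apart formed 30 pairs, and in 23 (76.7%) both midpoints were in 1 domain, against 78.1% of 20846 neighbouring pairs of protein-coding genes. A further 6 member pairs were beyond the last boundary of chromosome 9, and 1 pair (3.33%), Cxcr2 and Cxcr1, counted as separated, against 19.2% of all pairs. A pair also counted as separated if 1 midpoint lay inside a boundary interval and the other in a domain. This was so for Cxcr2 and Cxcr1, where the list does not say on which side of the boundary point Cxcr2 falls. No boundary lies between the genes of those 6 pairs. With stretches beyond the last boundary counted as domains, the shares in 1 domain were 96.7% for members and 79.7% for all protein-coding genes. The median gap was 24.157 kb between neighbouring members and 12.898 kb between neighbouring protein-coding genes.

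Over all pairs of members, neighbours or not, distance can be held alike. Here a boundary counted by the centre of its interval, so a midpoint inside an interval did not by itself separate a pair. These shares are therefore another measure than the share of separated neighbours above. With midpoints under 50 kb apart, 22 of 23 member pairs (95.7%) had no boundary between them, against 92.3% of protein-coding pairs. None of the 17 member pairs between 50 and 100 kb, the 20 between 100 and 200 kb or the 10 between 200 and 500 kb was separated. Among all protein-coding genes, 85.6%, 75.6% and 49.6% of pairs in these 3 ranges were not separated. Other families that lie in arrays had shares close to those of the members. Between 200 and 500 kb, the share not separated was 100% for members, 100% for defensin genes, 94.0% for serpin genes and 93.5% for cytochrome P450 genes. In the nearer ranges these families lay between 91.5% and 100%. The pairs of a cluster share a stretch of chromosome and are not independent values. The 10 member pairs of the widest range come only from the clusters of chromosomes 9 and 4. Most of them lie beyond the last boundary of chromosome 9, where no listed boundary could separate them. The nearer ranges hold pairs from that stretch too.

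**Figure D4:**
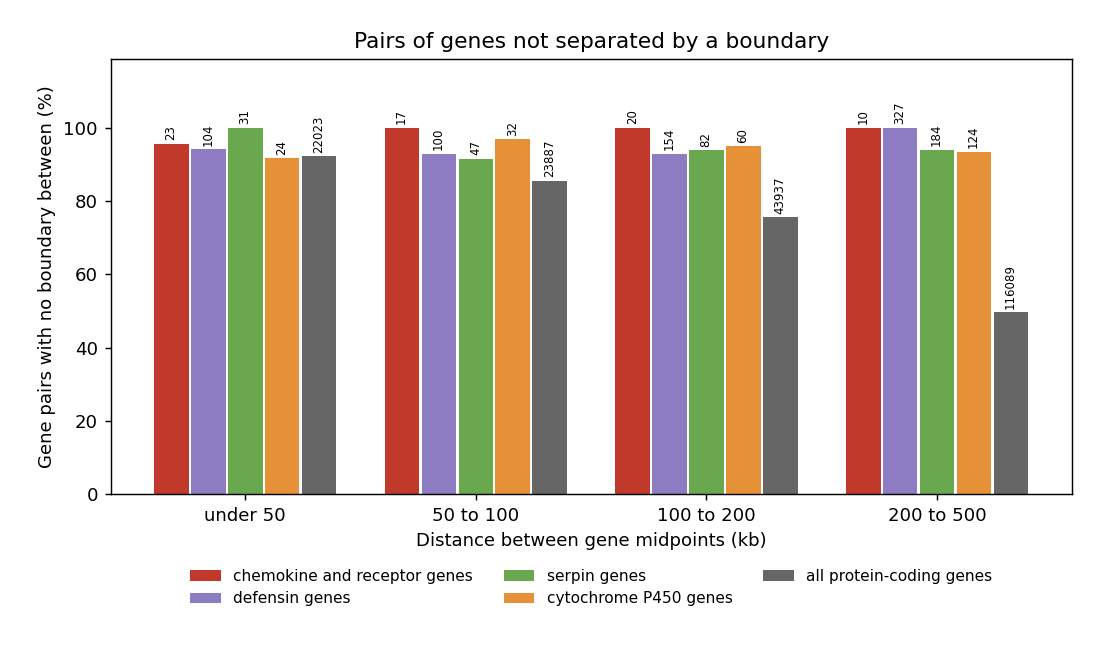
Share of gene pairs with no boundary between them (vertical axis, percent) by distance between gene midpoints (horizontal axis, kb), with the number of pairs above each bar, for chemokine and receptor genes, defensins, serpins, cytochrome P450 genes and all protein-coding genes. The member bars stand at 95.7% and then 100%, the other arrayed families stay above 91%, and all protein-coding genes reach 49.6% between 200 and 500 kb. A boundary counts by the centre of its interval, and pairs beyond the last boundary of a chromosome cannot be separated.

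The same families were set beside the members for distance. Within 10 kb of a boundary were 4 of 71 defensin genes (5.63%), 7 of 63 serpin genes (11.1%) and 8 of 99 cytochrome P450 genes (8.08%). Their median distances were 343.361, 228.583 and 136.941 kb, so the members' 176.45 kb lay between those of the serpin and cytochrome P450 genes.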

How the data were processed

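Micro-C libraries of 5 groups were made by the authors. Per the submitters' processing notes, BWA 0.7.17 and Juicer 1.22.01 were used with mm10. The deposited list holds boundary intervals of the pooled DMSO-treated ESC libraries; how boundaries were called is not given in the sources used here. The other 4 groups were not analysed here.

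Positions count from 1. Domains are the stretches from each boundary to the next, and a gene was placed by its midpoint. Distance ran from the nearer gene end to the interval, 0 if inside. Of 21900 protein-coding RefSeq genes, 113 were left out because they follow the chromosome's sorted genes, which marks positions along scaffolds, and 266 because they lie on Y, the mitochondrial genome or no known chromosome. Cxcl11 is a transcribed pseudogene in this annotation and is no member.

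Counts cover all 56 members; a member and a neighbouring gene are not reported by name here. Named were all clusters, members near the 10 kb window, the 5 farthest members and their neighbours. Members, lists and the motif were chosen with earlier results of these data known. Distance and placement were tested on simulated data. Python 3.11.15, numpy 2.4.6 and pandas 2.3.3 were used.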

Additional observations from a re-analysis of the deposited data

How the results depend on the processing

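The median distance of members stayed within 1.5 times its value under every alternative tried, at 179.102 kb by gene midpoint, 188.95 kb to the interval's centre, 193.573 kb without chromosome 11, which has the most members, and 160.145 kb without genes beyond the outermost boundaries, an alternative chosen after seeing the data. The count of 2 members within 10 kb is small and moved by more than 1.5 times with the definition. Counts were compared here and not shares, although fewer members were eligible by annotated start and by length. The count was 1 with no window, 6 with 25 kb and 9 with 50 kb, 1 of 42 by annotated start, 1 by the interval's centre and 1 of 41 among genes of up to 10 kb. The share of all protein-coding genes was above the members' under each of these, from 9.59% to 35.6%. The members' count stayed at 2 by gene midpoint, without chromosome 11, and with each cluster counted as 1 locus. The last is 2 of 26 loci, for which no share of all protein-coding genes was computed. Ligand genes counted 0 with no window and 7 with 50 kb; receptor genes counted 2 with 50 kb. A boundary fell in 1 cluster with gaps of 100 kb (11 clusters), 500 kb or 1 Mb (10 clusters each). Neighbouring members in 1 domain made up 66.7% without chromosome 11 and 96.7% with stretches beyond the last boundary counted as domains (also chosen after seeing the data), against 77.7% and 79.7% of all pairs. No paired analysis was possible because the list is pooled over libraries and carries no replicate columns; leaving out a library could not be run either. Depth is unknown, and a list without scores cannot show weak boundaries.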

Other observations

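Of 9 genes of the chemokine system with other names, 1 had an end within 10 kb of a boundary, where 18.3% of all protein-coding genes lie. This was Cklf, a chemokine-like factor gene, at 0 kb. The platelet chemokine genes Pf4 and Ppbp lay 151.618 and 154.938 kb from a boundary, in the CXC ligand domain of chromosome 5. Xcr1, the Xcl1 receptor gene, lay 277.315 kb from the last boundary of chromosome 9. The atypical receptor genes Ackr1 to Ackr4 lay at 91.498, 73.355, 203.98 and 72.682 kb in that order, and Ccrl2 at 242.483 kb; none of these 5 shared a domain with a member. Cxcl11 lies in the domain of Cxcl9 and Cxcl10, 286.705 kb from a boundary.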
